A study of Mus musculus with 8 samples.

Results

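The genes described here are 8 mouse genes known to be induced by androgens in other tissues: Zbtb16, Tsc22d3, Sgk1, Ndrg1, Tmprss2, Abcc4, Acsl3 and Odc1. They were chosen by name, with earlier results of these data known. Every probe set whose platform annotation names one of them alone was taken, which gave 24 of the 34945 probe sets that name 1 gene. Expression was measured in the microdissected region of the genital tubercle, the embryonic outgrowth from which the penis or the clitoris forms. The 4 male and 4 female samples came from FVB/N embryos at embryonic day 14. The labels give no treatment, transgene or mutant allele for either sex, and they say that samples were not pooled. RNA was amplified in 2 rounds and hybridized to Affymetrix MOE430 arrays, 1 array for each sample, and the labels do not say whether embryos shared a litter or a hybridization day.

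Androgens act through a ligand-activated nuclear receptor that binds short palindromic DNA elements near its target genes. The glucocorticoid receptor recognises nearly the same element, and several of the 8 genes are also induced by glucocorticoids, among them Zbtb16, Tsc22d3 and Sgk1. In the tubercle, androgens later direct closure of the urethral groove and growth of the penis in males, while male and female tubercles still look alike when they first form. The 8 genes fall into groups by function: transcriptional regulators (Zbtb16, Tsc22d3), a kinase (Sgk1), a differentiation and stress gene (Ndrg1), a protease and a transporter of the cell membrane (Tmprss2, Abcc4), and enzymes of lipid and polyamine metabolism (Acsl3, Odc1).

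The promoter windows of RefSeq (GRCm38.p6, 250 bases before to 50 after an annotated start) were searched on both strands for the steroid half-site AGAACA, for the full palindromic response element (the half-site, 3 bases of any kind and the reverse complement of the half-site) and for the E-box CACGTG. Of the 8 genes, 6 had a window, 14 windows in all. The full palindrome was found in 1 of these genes, Sgk1, and in 3 of 32851 windows of the whole table (0.00913%). In Sgk1 it lies at chr10:21993701-21993715, 951 to 965 bases before the most downstream annotated start at 21994666 and just upstream of another annotated start. The half-site was found in 19% of all windows and the E-box in 7.15%. Among the 8 genes the half-site was found in Tsc22d3, Abcc4 and more than 1 window of Sgk1, and the E-box in Sgk1 and Abcc4. The first window below is shown because it holds the palindrome, the second because Tsc22d3 is a classical steroid target with a lone half-site match there, on the minus strand of the printed sequence, and the third because Acsl3 has the larger of the 2 called sex differences among the 8 genes. Capitals mark matches. In the Sgk1 window (chr10:21993640-21993939, plus strand) the first run of capitals is an E-box overlapping a half-site on the minus strand, and the second run is the palindrome. The Tsc22d3 window is chrX:140600473-140600772, minus strand, and the Acsl3 window, chr1:78657575-78657874, plus strand, held no match. These are matches of letters and were not tested for binding.
Sgk1: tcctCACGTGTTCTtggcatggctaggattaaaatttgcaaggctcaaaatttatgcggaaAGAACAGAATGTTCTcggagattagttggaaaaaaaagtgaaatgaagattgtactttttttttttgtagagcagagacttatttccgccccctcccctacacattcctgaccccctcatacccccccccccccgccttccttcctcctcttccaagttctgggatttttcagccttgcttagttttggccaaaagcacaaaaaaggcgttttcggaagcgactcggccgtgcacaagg
Tsc22d3: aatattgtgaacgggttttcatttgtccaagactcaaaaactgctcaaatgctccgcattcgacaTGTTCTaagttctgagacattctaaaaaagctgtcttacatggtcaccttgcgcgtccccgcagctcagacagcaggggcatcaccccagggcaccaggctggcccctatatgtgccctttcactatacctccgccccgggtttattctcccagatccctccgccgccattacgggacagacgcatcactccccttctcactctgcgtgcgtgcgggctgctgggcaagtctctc
Acsl3: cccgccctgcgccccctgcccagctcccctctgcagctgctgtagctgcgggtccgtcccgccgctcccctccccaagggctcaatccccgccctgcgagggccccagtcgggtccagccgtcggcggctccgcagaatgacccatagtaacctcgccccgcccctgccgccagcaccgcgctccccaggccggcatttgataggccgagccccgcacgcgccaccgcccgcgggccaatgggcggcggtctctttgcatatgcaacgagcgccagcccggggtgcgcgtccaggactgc

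Of the 24 probe sets, 16 had a mean log2 value at or above the median of all probe sets (7.77) and were tested, and 8 were dimmer. Zbtb16 had no probe set above that level. Each difference is the male mean minus the female mean of log2(intensity + 16), with the standard error (SE) from the limma fit over all 22519 tested probe sets and Benjamini-Hochberg adjusted p-values, and a difference was called at an adjusted p under 0.05. Differences on this scale understate the change of dim probe sets. Intensities are linear, scaled to the same trimmed mean on every array, and are not compared between genes. Since shared litters or processing days cannot be read from the labels, a p-value here reflects sample-to-sample spread alone, part of which can be technical. In bulk tissue, fewer cells of a type and less RNA per cell cannot be told apart.

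The androgen-induced genes were mostly not called between the sexes. On the brightest tested probe set of each gene, 0 of 7 genes were called by limma and 1 had an unadjusted p under 0.05. Over all tested genes read the same way, 42.2% were called, 14% higher in males and 28.2% lower. Over probe sets, 2 of 16 (12.5%) were called, beside 40.5% of all tested probe sets. Both were higher in males, a direction called for 18.7% of all tested probe sets: 1 of Acsl3 and 1 of Ndrg1. None of the 16 was called lower in males, a direction called for 21.9%. Male and female ranges stood apart for 3 of the 16 probe sets, beside 37.1% of all tested ones. The count of called probe sets was 1 without female replicate 2 or 3 or male replicate 2 or 3, and 3 without female replicate 4. Over all tested probe sets the count ranged from 7321 to 9454 without each array in turn. The median absolute difference was 0.19 over the 16 probe sets and 0.35 over all tested probe sets, and the median within-sex SD on the log2 scale was 0.20 and 0.23. The median signed difference was 0.09 over the 16 and -0.01 over all.

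The arrays differed in technical measures that moved with sex. The 18S ribosomal RNA control gave 8332 to 18926 on the female arrays and 21050.2 to 33634 on the male arrays, and with its level as a covariate 0 of the 16 probe sets were called, beside 414 of all tested ones. Scaling every array to the same median moved the median difference of all tested probe sets to -0.23, and calls higher against lower in males from 4206 against 4922 to 2297 against 7730. The labels were checked on Eif2s3y, which read 4109 to 6136 on the 4 male arrays and 31.1 to 70.85 on the female arrays. Xist read 32465 to 35816 on the female arrays, 230 to 620 on 3 male arrays and 16036 on male replicate 3. Male replicate 3 thus had Xist between the levels of the sexes, with Eif2s3y at 5571. It was kept as male in the fit, and the reason for its Xist signal was not tested. The tubercle genes Hoxd13, Isl1, Shh and Wnt5a were bright on every array, Fgf10 read only 237 to 407, and Hoxa13 lay below the filter. Of 7 tested tubercle genes 4 were called lower in males and 0 higher, beside 28.2% and 14% of all tested genes. The 4 were Hoxd13 (-0.29), Isl1 (-0.33), Shh (-0.39) and Pitx1 (-1.03). Tbx4 (-0.09), Wnt5a (-0.07) and Fgf10 (0.37) were not called. The summed intensity of the 8 tubercle genes was 119374 to 134603 in females and 105077 to 108700 in males. Genes of several other cell types, though not all that were listed, moved with sex as well. The summed intensity of 12 skeletal muscle markers ranged from 7258 to 17739 in females and from 20957 to 31979 in males, and that of 5 cartilage markers from 1974 to 2230 and from 4197 to 7346. For 8 endothelial markers the ranges were 7253 to 8947 and 9597 to 12486. The sums were apart in the same direction for neuron markers (8450 to 9989 and 11490 to 14676), erythroid markers (40185 to 42910 and 44377 to 54182) and macrophage markers (4735 to 5513 and 6081 to 7187). In these lists, endothelium included, called genes went both ways. Higher and lower in males were 4 and 1 endothelial and 4 and 1 neuron markers. For erythroid markers these counts were 1 and 2, and for macrophage markers 2 and 1. The lower ones were Cdh5 (-0.57), Gap43 (-0.48), Hba-x (-1.09) and Hbb-bh1 (-1.04), and Cd68 (-0.88), in that order. The sum of 11 epithelial markers overlapped, with 51343 to 59075 in females and 52637 to 56760 in males, but its genes moved both ways. Of 10 tested, the keratin genes Krt5 (-0.75), Krt8 (-1.15), Krt14 (-0.92) and Krt18 (-0.90) were lower in males by limma and Trp63 (0.48), a regulator of stratified epithelium, was higher. The sums also overlapped for Schwann cell and neural crest markers (5246 to 6421 in females, 3892 to 6072 in males). They overlapped too for gonad and genital duct markers (4326 to 5648 and 4523 to 6371). Of 3 tested Schwann cell and neural crest genes 1 was called, higher in males, and of 2 tested gonad and duct genes 0. The part of all these cell types in the values below was not tested.

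**Figure D1:**
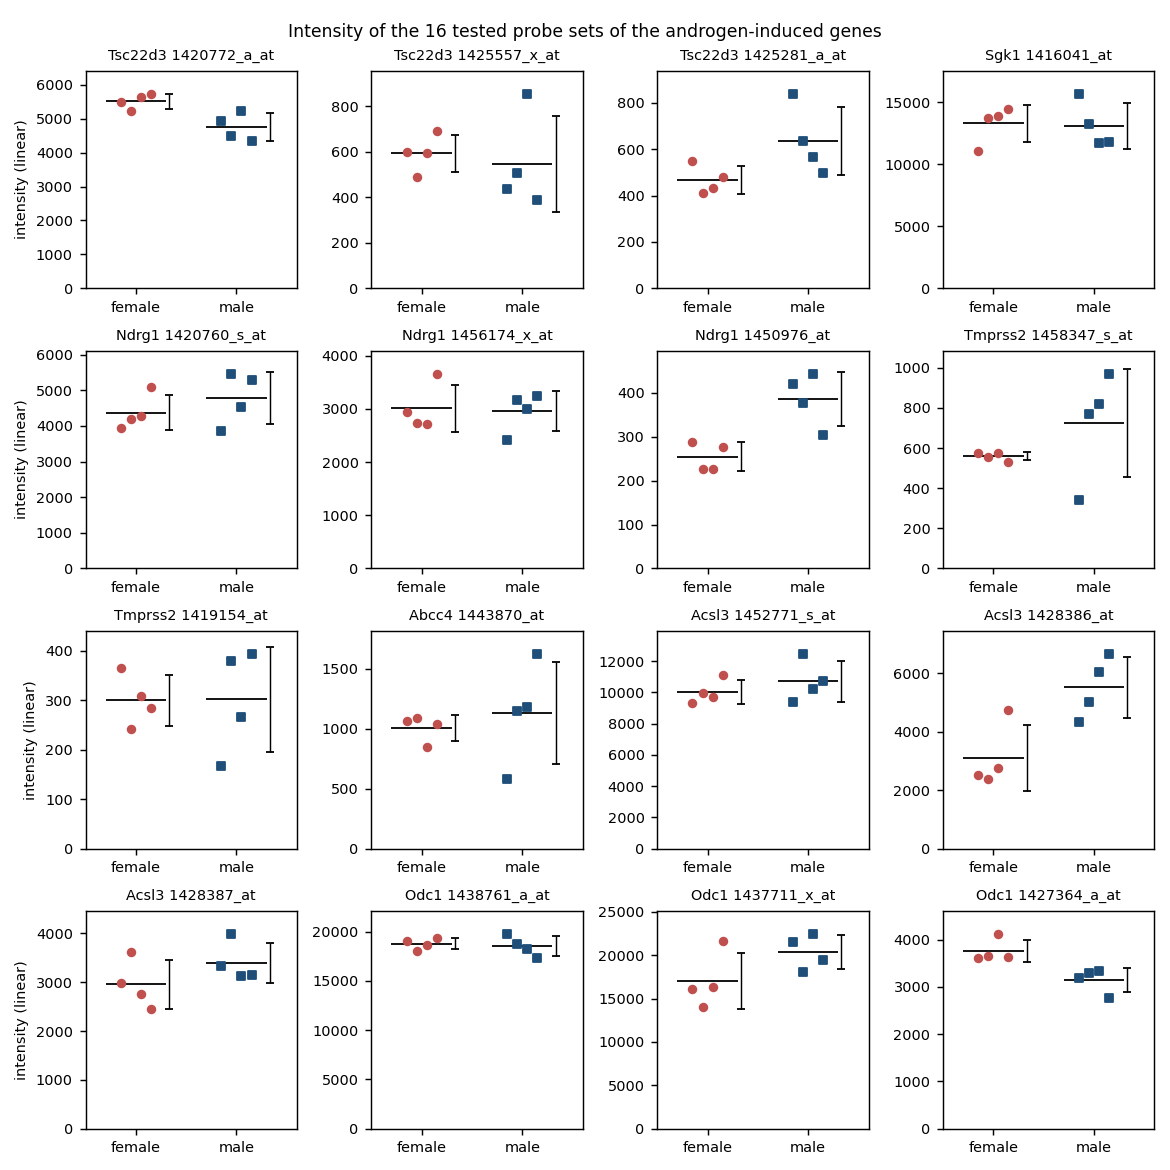
Linear intensity of each tested probe set, with 1 point for each array (circles, 4 female; squares, 4 male), a line at the group mean and a bar of 1 SD. The points of the sexes separate only for Tsc22d3 1420772_a_at, Ndrg1 1450976_at and Odc1 1427364_a_at, and Acsl3 1428386_at has 1 female array at 4761, inside the male range.

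**Figure D2:**
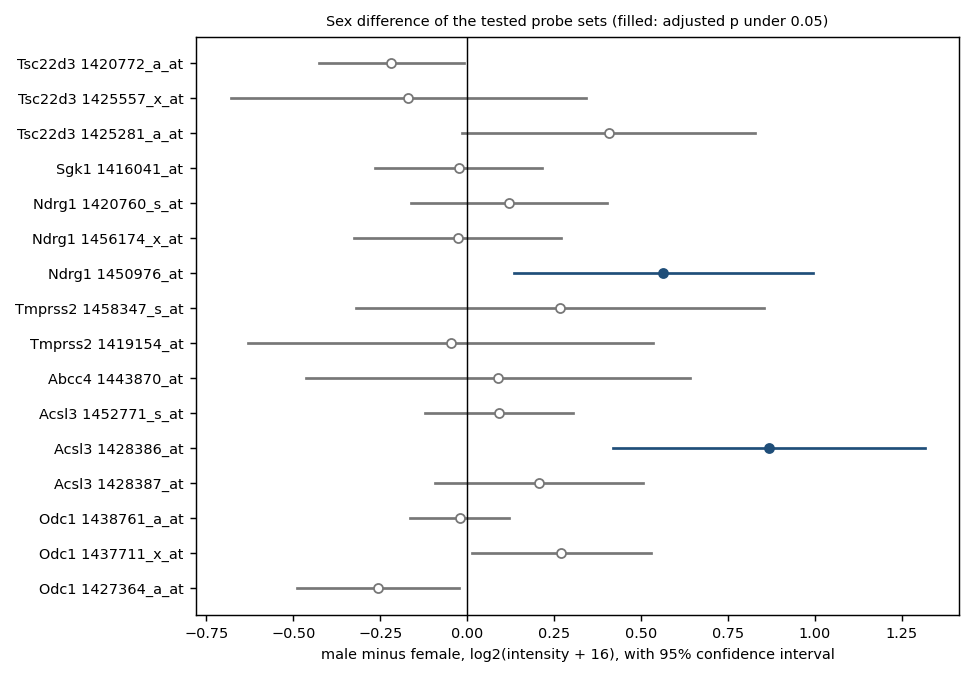
Difference of male minus female on the log2(intensity + 16) scale for the 16 tested probe sets, with 95% confidence intervals of the limma fit. The 2 filled points, Acsl3 1428386_at at 0.87 and Ndrg1 1450976_at at 0.56, had an adjusted p under 0.05, and the other 14 did not.

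Zbtb16 encodes a zinc finger repressor, PLZF, which patterns the limb skeleton and keeps germline stem cells. It was dim on all 3 of its probe sets. The brightest, 1439163_at, read 165, 64.9, 141 and 78.8 on female replicates 1 to 4 and 378, 267, 119 and 91.1 on male replicates 1 to 4. The 2 highest values were male, and the other 2 male arrays lay inside the female range. On 1427638_at, males read 24.6 to 141 and females 45.1 to 149.9. On 1419874_x_at, males read 15.6 to 105 and females 11.6 to 68.3. With no filter on intensity the difference of 1439163_at was 0.72 ± 0.46 (SE, limma adjusted p = 0.319). None of the 3 probe sets was called in that fit, and with an SE of this size a change could have been missed.

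Tsc22d3, on the X chromosome, encodes GILZ, a leucine zipper protein through which glucocorticoids restrain inflammation. Its brightest probe set, 1420772_a_at, read 5488, 5227, 5627 and 5729.6 on the female arrays and 4945, 4490.3, 5220.4 and 4348 on the male arrays. Every male value lay below every female value, though male replicate 3 missed the lowest female array by only a few units. The means were 5518 ± 218 in females and 4751 ± 403 in males (SD, n = 4), a difference of -0.22 ± 0.10 (95% interval -0.43 to -0.01), which did not pass after adjustment (limma adjusted p = 0.0868). It was called lower when arrays were scaled to the same median (-0.45, limma adjusted p = 0.00686) and with array quality weights (-0.26, limma adjusted p = 0.0263). A dimmer probe set, 1425281_a_at, pointed the other way. It read 549, 410.0, 434 and 480.1 in females and 838, 634, 566 and 499 in males, so 3 of 4 male arrays were above all females (0.41 ± 0.19, limma adjusted p = 0.111). On 1425557_x_at the male arrays spanned 389 to 855, around a female range of 488 to 692 (-0.17 ± 0.24, limma adjusted p = 0.594). The suffixes a_at, s_at and x_at mark probes shared by several transcripts or prone to cross-hybridization.

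Sgk1 encodes a kinase that acts on ion channels and cell survival and is induced by steroids and serum. Its only probe set, 1416041_at, was bright, with 11089.5, 13729, 13902 and 14416 in females and 15657, 13205, 11745 and 11759 in males. The highest value was that of male replicate 1, and the other 3 male arrays lay inside the female range. The means were 13284 ± 1492 and 13092 ± 1843 (SD, n = 4). The difference was -0.02 ± 0.11 (limma adjusted p = 0.881), with a 95% interval of -0.26 to 0.22, so larger sex differences lie outside the interval. Sgk1, the gene whose window holds the palindromic element, thus had a difference smaller than its SE.

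Ndrg1 encodes an intracellular protein of differentiating cells, induced by androgens, by low oxygen and by metal chelators. Its brightest probe set, 1420760_s_at, read 3933, 4202, 4282 and 5079 in females and 3864, 5454, 4520.1 and 5289 in males. The ranges overlapped, male replicate 1 being the lowest of all 8 arrays (0.12 ± 0.13, limma adjusted p = 0.479). The probe set 1456174_x_at overlapped too, with 2718 to 3653 in females and 2409 to 3240.5 in males (-0.03 ± 0.14, limma adjusted p = 0.889). The dimmer 1450976_at was the called one. It read 288, 227, 227 and 276 in females and 419, 377, 442 and 303 in males, so every male array was above every female array. The means were 254 ± 32.3 and 385 ± 61.1 (SD, n = 4), a difference of 0.56 ± 0.20 (limma adjusted p = 0.0379). This call was lost when female replicate 2 or 3 or male replicate 1, 2 or 3 was left out, with differences of 0.50 to 0.57 and limma adjusted p-values of 0.0697 to 0.0940. It was also lost with quantile normalization (0.40, limma adjusted p = 0.0995) and with scaling to the same median (0.35, 0.171). With no filter (limma adjusted p = 0.0813) and with the replicate number as a block (0.0722) the difference was the same and the call was lost, and with the 18S covariate it was 0.53 (0.441). The other 2 Ndrg1 probe sets were below 100 on every array.

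Tmprss2 encodes a serine protease of the epithelial surface, and it is a classical androgen target of the prostate. Its brightest probe set, 1458347_s_at, read 575, 555, 576 and 533 in females and 341, 771, 818 and 969 in males. The female arrays lay within a narrow band, 3 male arrays were above all of them, and male replicate 1 was below all of them. The means were 559.8 ± 20.3 and 725 ± 269.6 (SD, n = 4), and the difference did not pass (0.27 ± 0.27, limma adjusted p = 0.453). Without male replicate 1 it was 0.59 ± 0.16 and was called (limma adjusted p = 0.0115). The labels give no ground to leave that array out. Its summed epithelial marker intensity was 52637, below the 53588 to 56760 of the remaining males. Female replicate 4 had the lowest sum of all, 51343, and read 533 for this probe set. Whether these sums bear on the Tmprss2 values was not tested. The second tested probe set, 1419154_at, read 365, 242, 308 and 284 in females and 167, 379, 267 and 393 in males. Male replicate 1 was again the lowest, male replicates 2 and 4 were above all females and male replicate 3 was among them (-0.05 ± 0.27, limma adjusted p = 0.903). Another 2 probe sets of Tmprss2 were dim, with at most 74.6 on any array.

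Abcc4 encodes a membrane pump that exports cyclic nucleotides, prostaglandins and conjugated steroids. On its only probe set, 1443870_at, the females read 1059.6, 1084, 844 and 1035 and the males 582, 1148, 1182 and 1619. The pattern was that of Tmprss2: 3 male arrays were above every female array and male replicate 1 was below them. The means were 1006 ± 109.6 and 1133 ± 425 (SD, n = 4), with a difference of 0.09 ± 0.25 (95% interval -0.46 to 0.64, limma adjusted p = 0.807). Without male replicate 1 the difference was 0.37 and did not pass (limma adjusted p = 0.0950), and without male replicate 4 it was -0.11.

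Acsl3 encodes an enzyme that activates long-chain fatty acids and supports lipid droplet formation. It was bright on 3 probe sets, which the platform annotation draws from the same source sequence. The called probe set, 1428386_at, read 2536, 2375, 2745 and 4761 in females and 4341, 5027, 6062 and 6657 in males. All male arrays were above 3 of the female arrays, and female replicate 4 lay within the male range. The means were 3104 ± 1115 and 5522 ± 1036 (SD, n = 4), a difference of 0.87 ± 0.21 (95% interval 0.42 to 1.32, limma adjusted p = 0.00593). It kept its call without each array in turn, with differences of 0.76 to 1.09, and lost it with the 18S covariate (0.88 ± 0.37, limma adjusted p = 0.202). The brighter 1452771_s_at read 9302, 9944, 9674 and 11074 in females and 9362, 12432, 10239 and 10745 in males. These ranges overlapped widely (0.09 ± 0.10, 95% interval -0.12 to 0.31, limma adjusted p = 0.477). On 1428387_at the females read 2452 to 3621 and the males 3121 to 3978, with a difference of 0.21 ± 0.14 (limma adjusted p = 0.251). All 3 differences were positive in the fit, and those of 1452771_s_at and 1428387_at turned negative when arrays were scaled to the same median (-0.14 and -0.02). With the mean of its tested probe sets Acsl3 was the 1 gene of 7 that was called (0.39 ± 0.10, limma adjusted p = 0.00675).

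Odc1 encodes ornithine decarboxylase, the first enzyme of polyamine synthesis and a target of Myc as well as of androgens. Its brightest probe set, 1438761_a_at, varied little, with 19029, 18018, 18658 and 19385 in females and 19712, 18763, 18276 and 17280.0 in males. The sexes overlapped and differed by -0.02 ± 0.07 (95% interval -0.16 to 0.12, limma adjusted p = 0.815). The probe set 1437711_x_at read 16068, 14052, 16274 and 21682 in females and 21558, 18072, 22387 and 19389 in males. All male arrays were above 3 female arrays, and female replicate 4 was inside the male range (0.27 ± 0.12, limma adjusted p = 0.0862). Leaving out female replicate 4 made the male excess pass (0.39, limma adjusted p = 0.00645). The dimmest one, 1427364_a_at, went the other way. It read 3608, 3663, 4112 and 3643 in females and 3199.7, 3288, 3333 and 2765 in males, every male array below every female array. Its difference of -0.26 ± 0.11 did not pass (limma adjusted p = 0.0742), but did with scaling to the same median (-0.48, limma adjusted p = 0.00891) and with array quality weights (-0.30, limma adjusted p = 0.0275).

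**Figure D3:**
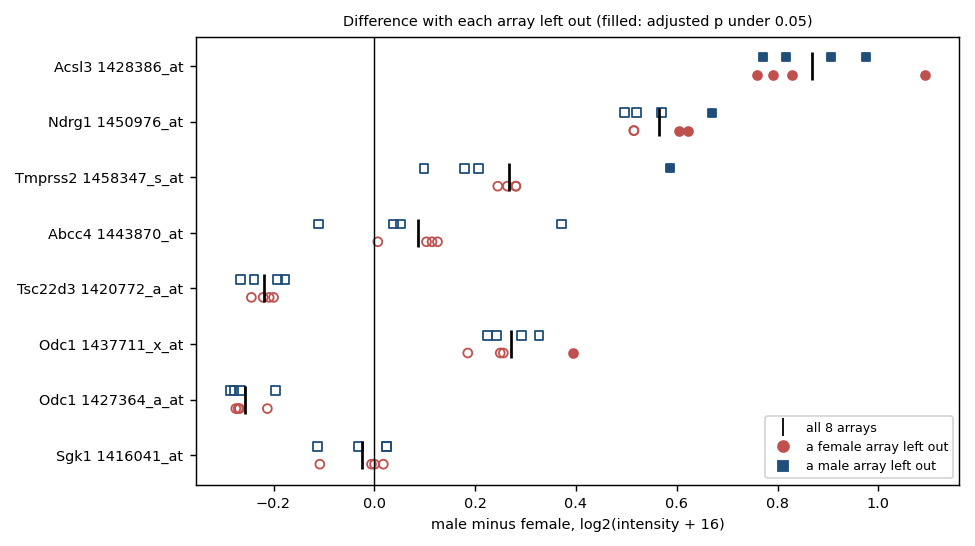
Difference of male minus female for 8 probe sets with all 8 arrays (bars) and with each array left out in turn (circles, a female array; squares, a male array), filled where the adjusted p was under 0.05. Acsl3 1428386_at stays filled throughout between 0.76 and 1.09, Ndrg1 1450976_at is filled for some arrays, and Tmprss2 1458347_s_at moves to 0.59 only when male replicate 1 is left out.

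Probe sets of one gene often differed in sign. Of the 5 genes with at least 2 tested probe sets, 4 had differences of both signs (Tsc22d3, Ndrg1, Tmprss2 and Odc1), beside 47.8% of the 4934 such genes on the array. These shares were not matched on the number of probe sets per gene. The negative differences of Ndrg1 (-0.03 ± 0.14) and Tmprss2 (-0.05 ± 0.27) were smaller than their SE. The gap between probe sets of a gene was compared between the sexes for all 13 pairs with an exact permutation test, two-sided, whose smallest p here is 0.0286. The gap differed with that p for the 2 pairs whose groups did not overlap: Tsc22d3 1425281_a_at against 1420772_a_at, by 0.63 on the log2 scale, and Odc1 1427364_a_at against 1438761_a_at, by -0.23. For Acsl3 1428386_at against 1452771_s_at the gap was -0.96 ± 0.29 in males and -1.74 ± 0.36 in females (SD, n = 4), a difference of 0.78 (exact permutation p = 0.0571). After adjustment over the 13 pairs none passed, the lowest adjusted p being 0.149 in this exact test. The 2 pairs at the smallest p could not have passed that adjustment on their own, whatever the size of their gaps. The adjusted result therefore cannot decide whether these gaps differ between the sexes.

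Single male arrays stood at the ends of the range for many tested probe sets of these genes, with probe sets of 1 gene counted separately. The same counts were not made over all tested probe sets, so a trait particular to these genes cannot be read from them. Male replicate 1 was the lowest of all 8 arrays on 5 of the 16 tested probe sets and the highest on 3. Male replicate 4 was the lowest on 4 and the highest on 4. Male replicates 2 and 3 were the lowest on none and the highest on 3 each. Male replicate 1 was lowest for Tmprss2, Abcc4 and the brighter Ndrg1 probe sets and highest for Sgk1.

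The other genes of these pathways were read on their brightest tested probe set. Among 78 tested genes reported as androgen-responsive elsewhere, mostly in prostate cells, 19 were higher in males, 18 lower and 41 not called (47.4% called). Over all tested genes 42.2% were called, 14% higher in males and 28.2% lower. The median difference of the 78 genes was -0.04, beside -0.12 over all tested genes. The largest called differences were those of Ell2, a transcription elongation factor (1035 ± 289 in females, 3162 ± 514 in males, SD, n = 4), Bmpr1b, a BMP receptor (1.51 ± 0.22), Gsr, glutathione reductase (1671 ± 344 and 4508 ± 432), and the transcription factor Maf (1.38 ± 0.14). Another 2 Maf probe sets had negative differences and were not called. Of the hormone axis of the tubercle 5 of 9 listed genes were tested. Igf1 (0.53 ± 0.17) and the secreted Wnt inhibitor Wif1 (0.50 ± 0.16) were higher in males, and the receptor chaperone Fkbp4 (-0.95 ± 0.14) and the reductase gene Srd5a3 (-0.49 ± 0.15) were lower. Another 2 Fkbp4 probe sets were not called, 1 of them with a positive difference (0.42). For Igf1, 3 dimmer tested probe sets were not called (0.16, 0.40 and -0.01), and the difference of the brightest was 0.31 without female replicate 1. Fkbp5, a chaperone that steroid receptors induce strongly, read 5382 ± 149 in females and 4639 ± 261 in males (-0.21 ± 0.09) and did not pass (limma adjusted p = 0.0733).

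Beside the following lists, 42.2% of all tested genes were called, 14% higher and 28.2% lower in males. Genes that glucocorticoids regulate went in both directions, 3 of 18 tested higher in males and 6 lower (50% called). The glucocorticoid receptor gene Nr3c1 rose from 1457 ± 115 to 2743 ± 287 (0.90 ± 0.13, limma adjusted p = 0.000309), and 2 dimmer Nr3c1 probe sets were also called higher. The repressor gene Bcl6 rose by 0.88 ± 0.13. The lipase inhibitor gene Angptl4 was lower (-1.04 ± 0.25), as was the metallothionein gene Mt2 (-0.90 ± 0.22). In polyamine metabolism, around Odc1, 2 of 11 tested genes were higher in males and 5 lower (63.6% called). Spermidine synthase (Srm) fell from 2810.1 ± 464 to 1949.7 ± 439.6, and the hypusine enzymes of the translation factor eIF5A, Dhps (-0.75 ± 0.12) and Dohh (-0.79 ± 0.21), were lower. Sat1, which breaks polyamines down, rose (0.52 ± 0.14). The remaining called genes of this list were Smox (-0.46 ± 0.13) and Oaz2 (-0.35 ± 0.09), lower in males, and Azin1 (0.38 ± 0.09), higher. Among 17 tested family members of the 8 genes, 2 were higher in males and 4 lower (35.3% called). The transporter gene Abcc1 fell from 4754 ± 563 to 2622 ± 144, the epithelial protease gene St14 differed by -0.66 ± 0.19 and Zbtb17 by -1.02 ± 0.20, while Ndrg2 rose by 0.59 ± 0.17. Of 13 tested hypoxia targets, 4 were lower in males (30.8%) and 0 higher, a share of lower genes near the 28.2% of all tested genes. They were Ddit4 (-0.51 ± 0.14), Kdm3a (-0.30 ± 0.11), Egln1 (-0.25 ± 0.08) and the lactate dehydrogenase gene Ldha (-0.23 ± 0.06). Smox, Oaz2 and Azin1 were not followed over other settings. Of the 24 other called genes named from these lists, 16 kept their call without each array in turn. Igf1 lost it without male replicate 3 (limma adjusted p = 0.0691) and St14 without female replicate 3 (0.0575). Srd5a3 lost it without female replicate 1 (limma adjusted p = 0.0699) or male replicate 3 (0.0619). For Ndrg2 the arrays were female replicates 2 and 3 and male replicate 2, with limma adjusted p-values of 0.0539 to 0.0564. Srm lost its call without female replicate 3 or 4 or male replicate 2 or 4 (0.0568 to 0.0762). Wif1 lost it without any of 5 arrays, female replicates 1, 2 and 3 and male replicates 1 and 3 (0.0509 to 0.0703). Egln1 lost it without female replicate 1, 2 or 4 or male replicate 3 or 4 (0.0514 to 0.0700). Kdm3a lost it without female replicate 1, 2 or 4 or male replicate 1, 3 or 4 (0.0706 to 0.126). Scaling to the same median ended the calls of Igf1 (0.30, limma adjusted p = 0.147), Wif1 (0.27, 0.165), Sat1 (0.29, 0.194) and Ndrg2 (0.36, 0.127). With no filter Igf1, Wif1 and Kdm3a were not called, without the variance trend Egln1 and Ldha also were not, and array quality weights ended the calls of Kdm3a and Egln1. Of the 24 genes, 9 had another tested probe set, and in 7 of these at least 1 did not share the call. With the 18S covariate 4 of the 24 were still called: Ell2, Gsr, Maf and Nr3c1. The SE of the 24 genes was 1.53 to 2 times as large in that fit. Of the 20 genes that lost their call, 7 had a difference at least as large as before, such as Bmpr1b (1.59), Dhps (-0.85), Dohh (-1.24) and Sat1 (0.81). The difference shrank by over 1.5 times in 5, Igf1 (0.06), Srd5a3 (-0.31), Angptl4 (-0.68), St14 (-0.42) and Kdm3a (-0.17).

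**Figure D4:**
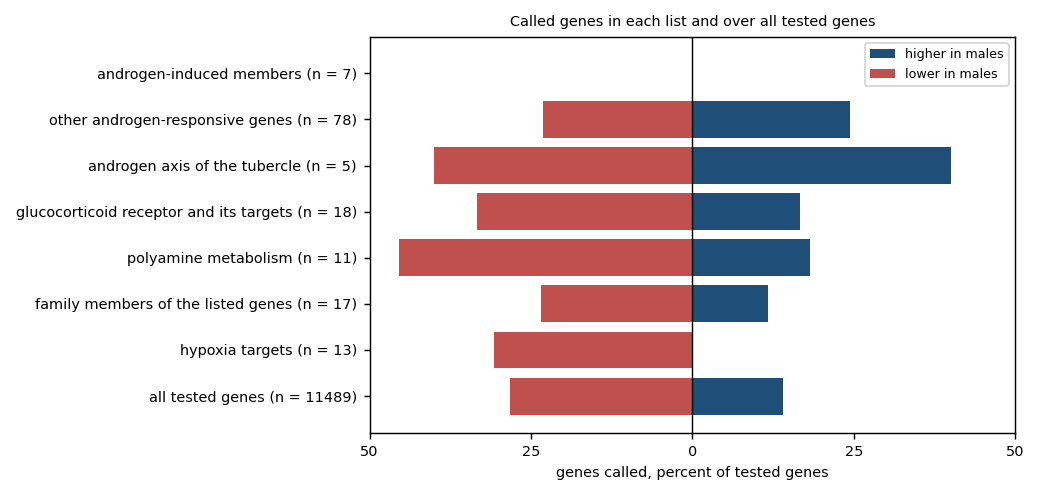
Share of tested genes called higher (right) or lower (left) in males in each list, in percent of the tested genes, with all tested genes as the last bar. The 8 androgen-induced genes show no bar, with 0 of 7 called, and all tested genes show 14% higher and 28.2% lower.

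The gene with the most similar profile was found for each of the 7 tested genes, as the smallest root mean square difference over the 8 arrays between log2 values centred on their own mean, among 11488 other genes. For Tsc22d3 it was Arhgap35, at 0.02. For Ndrg1 it was Gas1 (0.05) and for Sgk1 Myg1 (0.06). The more variable Tmprss2 and Abcc4 had more distant neighbours, Lrba at 0.11 and C2cd4c at 0.14. Acsl3 was nearest to Galnt1 (0.06) and Odc1 to Cebpg (0.04). For comparison, the root mean square deviation from the own mean was 0.14 for Tsc22d3, 0.18 for Ndrg1, 0.16 for Sgk1, 0.42 for Tmprss2, 0.39 for Abcc4, 0.13 for Acsl3 and 0.06 for Odc1. This is a ranking over all genes with no test.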

How the data were processed

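Deposited values were linear probe set intensity made by the authors with GCOS (Affymetrix software) according to the submitters' processing notes. Its version was not given in any source used. The mean after trimming 2% at each end was 1500.0 on every array, and the authors' scaling was kept. No pair among 28 pairs of arrays held identical values. Genes were named from the platform annotation, and some listed genes are not analysed here. Values were taken as log2(intensity + 16). Of 45101 probe sets, 64 controls were left out and 22519 at or above the median mean were tested with limma (version 3.58.1, R version 4.3.3), with a mean-variance trend and sex as the only term. The fit was tested on simulated data. Named from each list were up to 4 called genes with the largest differences, plus fixed genes and the remaining called genes of polyamine metabolism. Members, lists and alternatives were chosen with earlier results of these data known, and the pairs of probe sets were compared after seeing the values. Alternatives were other normalizations, pseudocounts of 1 and 64, other filters, variance models and weights, the replicate block, the 18S covariate and leaving out each array.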

Additional observations from a re-analysis of the deposited data

Results flagged for a closer look

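Groups of 4 arrays were taken from the 24 probe sets and from the named pathway genes other than Smox, Oaz2 and Azin1. Dixon's criterion, used to find an outlying array, flags about 1 in 20 groups of independent normal values. The values here are linear intensities, and the groups share arrays and genes, so that rate need not hold for these data. Of the 98 groups taken, 9 had 1 array set far apart from the other 3 by this criterion. Female replicate 4 was the high array in 4 of them: it read 4761 for Acsl3 1428386_at against 2375 to 2745 on the other female arrays, 2182 for Gsr 1421817_at against 1438 to 1554, 6799 for Wif1 1425425_a_at against 3903 to 4353, and 2048 for Ndrg2 1448154_at against 1227 to 1334. Female replicate 3 read 4112 for Odc1 1427364_a_at against 3608 to 3663. Male replicate 3 was low for Nr3c1 1460303_at, with 2316 against 2836 to 2913, and male replicate 2 was high for Ndrg2 1448154_at, with 2663 against 2026 to 2065. The other two are dim probe sets: 46.6 on female replicate 2 for Ndrg1 1423413_at, against 6.56 to 10.3, and 56.4 on male replicate 3 for Tmprss2 1459510_at, against 4.12 to 5.92.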

How the results depend on the processing

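The count of called probe sets of the 8 genes was 2 and became 1 with quantile normalization, with no filter and with the upper-quartile filter, 4 with array quality weights (2 higher and 2 lower in males), 3 with scaling to the same median (1 higher and 2 lower) and 0 with the 18S covariate; without each array in turn it ranged from 1 to 3. The count of called genes on the brightest probe set was 0 and became 1 with scaling to the same median and with array quality weights (Tsc22d3, lower), and 1 with the mean of a gene's probe sets (Acsl3, higher); without each array it ranged from 0 to 1. Over all 22519 tested probe sets 9128 were called, 9371 with quantile normalization, 414 with the 18S covariate, and 7321 to 9454 without each array. Array quality weights gave 10369 (4704 higher and 5665 lower in males), and scaling to the same median 10027 (2297 higher and 7730 lower). With no filter 8759 of 45037 were called, 24 of those tested being of the 8 genes. The upper-quartile filter, where fewer were tested, gave 5890 of 11260, with 10 of the 8 genes tested. With the replicate number as a block 1 probe set of the 8 genes was called and 8460 in all. Deviations of same-numbered samples had correlations of -0.13, -0.08, 0.04 and -0.03. With 4 samples per sex these values cannot show whether same-numbered samples shared a litter or a processing day.

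Differences near 0 changed sign without being called. With scaling to the same median these were Ndrg1 1420760_s_at (-0.11), Abcc4 (-0.14), Acsl3 1452771_s_at (-0.14) and Acsl3 1428387_at (-0.021). Ndrg1 1456174_x_at became 0.0069 with quantile normalization, 0.091 with array quality weights and 0.073 with the 18S covariate. Tmprss2 1419154_at became 0.16 with array quality weights and 0.67 with the 18S covariate. Without single arrays, Sgk1 ranged from -0.11 to 0.025, Ndrg1 1456174_x_at from -0.075 to 0.068, Tmprss2 1419154_at from -0.19 to 0.19, Abcc4 from -0.11 to 0.37 and Odc1 1438761_a_at from -0.052 to 0.011. The cause of these changes was not tested. The number of arrays, 4 per sex, limits precision, and dim probe sets such as those of Zbtb16 carry little signal.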
